A study of Mus musculus with 24 samples.

Results

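The 9 genes described here are regulators of the primitive streak and the early mesoderm: Mixl1, Eomes, Mesp1, Lhx1, Tbx6, Foxc1, Foxc2, Pdgfra and Lmo2. They were chosen by name, each had 1 transcript cluster on the array, and they are 9 of 19920 genes measured. Levels are log2 RMA signals from Affymetrix mouse gene arrays, on which each array also carries exon-level probe sets. The 12 RNA samples fall into 6 groups of 2: day 0 mouse ES (embryonic stem) cells that were not differentiated, then EB (embryonic bodies) of day 7 and CB (cardiac bodies) of day 14, from a culture with serum that leads to cardiomyocytes, and whole hearts of E17.5 embryos, of P1 newborns and of adults. The labels name no ES line, mouse strain, genotype, sex or adult age, and none of the groups carries a stated transgene or drug. They do not say whether the 2 samples of a group came from separate cultures or animals, or whether hearts were pooled, so p-values measure only the spread between these samples. Array medians ran from 5.62 to 5.76, and replicate arrays correlated across genes at 0.971 to 0.993. Defining markers matched the labels where they could be read: all 10 pluripotent markers were above background in ES cells (list means 10.89 and 10.88), and all 10 cardiomyocyte markers in cardiac bodies (11.44 and 11.08) and in the hearts (11.28 to 12.94 on 6 arrays). The pluripotent list means were 7.69 and 7.85 in embryonic bodies and 9.91 and 10.15 in cardiac bodies.

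The primitive streak is the region of the gastrulating embryo where epiblast cells leave the surface layer and become mesoderm and endoderm. Eomes and Mixl1 are transcription factors that are switched on as cells enter the streak, and Mesp1 marks the earliest cardiac mesoderm for a short time. Later regulators divide the mesoderm: Tbx6 in presomitic mesoderm, Lhx1 in the node, the anterior streak and intermediate mesoderm, Foxc1 and Foxc2 in paraxial mesoderm and forming vessels, Lmo2 in blood and endothelial precursors, and Pdgfra, a receptor tyrosine kinase, in paraxial and mesenchymal cells. In hearts, PDGFRA is best known in fibroblasts and epicardial derivatives, and FOXC1 and FOXC2 in endothelium and the outflow tract.

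RefSeq's GRCm38.p6 annotation places Mixl1 at chr1:180693043-180697034, Eomes at chr9:118478186-118486132, Mesp1 at chr7:79792241-79793590, Lhx1 at chr11:84517975-84525534 and Tbx6 at chr7:126781483-126785548. Foxc1 lies at chr13:31806646-31810635, Foxc2 at chr8:121116171-121118895, Pdgfra at chr5:75151322-75198206 and Lmo2 at chr2:103957903-103981878. RefSeq's table for the GRCm38.p6 assembly held a promoter window (250 bases before to 50 after the start) for 6 of the 9 genes: Eomes, Mesp1, Foxc1, Lhx1, Pdgfra and Tbx6. The 4 windows of genes that were higher in embryonic bodies than in ES cells are shown 5′ to 3′ on the gene's strand, to place the genes whose levels moved on the genome; capitals mark CG dinucleotides.
Eomes: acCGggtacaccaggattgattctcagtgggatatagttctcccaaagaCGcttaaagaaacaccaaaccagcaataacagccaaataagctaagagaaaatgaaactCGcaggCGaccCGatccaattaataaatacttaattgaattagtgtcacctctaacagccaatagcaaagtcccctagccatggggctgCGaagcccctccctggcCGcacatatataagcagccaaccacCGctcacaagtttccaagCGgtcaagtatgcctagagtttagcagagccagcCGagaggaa
Foxc1: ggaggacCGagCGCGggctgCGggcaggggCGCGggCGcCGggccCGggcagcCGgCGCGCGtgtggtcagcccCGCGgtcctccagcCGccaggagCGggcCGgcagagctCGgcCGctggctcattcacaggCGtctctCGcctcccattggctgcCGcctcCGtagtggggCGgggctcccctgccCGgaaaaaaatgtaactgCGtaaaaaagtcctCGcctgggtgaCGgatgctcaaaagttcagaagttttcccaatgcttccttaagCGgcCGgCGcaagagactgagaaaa
Lhx1: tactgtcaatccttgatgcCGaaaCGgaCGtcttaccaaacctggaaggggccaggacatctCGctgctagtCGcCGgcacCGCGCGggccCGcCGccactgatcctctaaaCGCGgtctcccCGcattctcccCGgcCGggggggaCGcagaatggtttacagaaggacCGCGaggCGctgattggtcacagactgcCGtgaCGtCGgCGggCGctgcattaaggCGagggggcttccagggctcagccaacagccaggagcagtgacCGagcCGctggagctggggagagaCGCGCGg
Pdgfra: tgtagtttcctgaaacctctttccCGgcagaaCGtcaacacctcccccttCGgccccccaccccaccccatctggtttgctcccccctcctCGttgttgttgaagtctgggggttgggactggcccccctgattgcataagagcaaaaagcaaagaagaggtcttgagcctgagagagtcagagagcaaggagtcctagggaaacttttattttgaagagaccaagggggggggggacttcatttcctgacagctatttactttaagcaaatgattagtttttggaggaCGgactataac
The Eomes window lies at chr9:118477939-118478238 (+ strand), that of Foxc1 at chr13:31806396-31806695 (+ strand), that of Lhx1 at chr11:84525485-84525784 (- strand) and that of Pdgfra at chr5:75152001-75152300 (+ strand). The start behind the Pdgfra window lies 929 bases inside the gene's span given above, and that of Eomes 3 bases inside. CG dinucleotides numbered 32 in the Foxc1 window and 31 in the Lhx1 window, against a median of 7 over 32851 RefSeq windows of the same length; 90.5% and 89.4% of windows held fewer. The Eomes window held 10 and the Pdgfra window 5. Short motifs were searched on both strands. The TCF/LEF motif CTTTGNT occurred 1 time each in the Eomes, Mesp1 and Pdgfra windows and is present in 18.6% of all windows. The T-box core GGTGTG occurred 1 time, in the Mesp1 window (19% of all windows). The GC box GGGCGG occurred 1 time, in the Foxc1 window (35.7% of all windows). The FoxH1 motif TGTGNATT (3.6% of all windows) was in none of the 6. The GATA motif AGATAA (11.2% of all windows) was in none either. None of these motifs lies inside another. A match is only a match of letters.

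A gene was counted as at background where both arrays of a group lay at or below the 95th percentile of 1205 transcript clusters with olfactory or vomeronasal receptor symbols. These receptors stand in for unexpressed genes; the deposited files used here hold no detection calls. That level ran from 4.58 to 5.03 over the 12 arrays. By this rule 2 of the 9 genes were at background in ES cells, 1 in embryonic bodies, none in cardiac bodies, 2 in E17.5 hearts, 3 in P1 hearts and 3 in adult hearts, against 26.6%, 26.1%, 25.6%, 26.6%, 26.8% and 28.1% of all genes in the same 6 groups. Mesp1 was at background in 5 of 6 groups, and Eomes in all 3 heart groups. Foxc1 was at background in ES cells, Mixl1 in adult hearts and Lhx1 in P1 hearts. Mixl1 had 1 array above and 1 below in E17.5 and in P1 hearts, as did Lhx1 in E17.5 and in adult hearts. Foxc2, Pdgfra, Tbx6 and Lmo2 were above background in all 6 groups, although at the 99th percentile of the receptors only Lmo2 was. The Foxc2 status differed between its 2 exon-level probe sets. Probe set 10576053 gave 4.04 and 4.18 in ES cells, where background levels were 4.79 and 4.72. In cardiac bodies it gave 4.59 and 4.57, against 4.84 and 4.58. Probe set 10576052 gave 9.44 and 9.22 in ES cells and 9.50 and 9.07 in cardiac bodies.

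**Figure D1:**
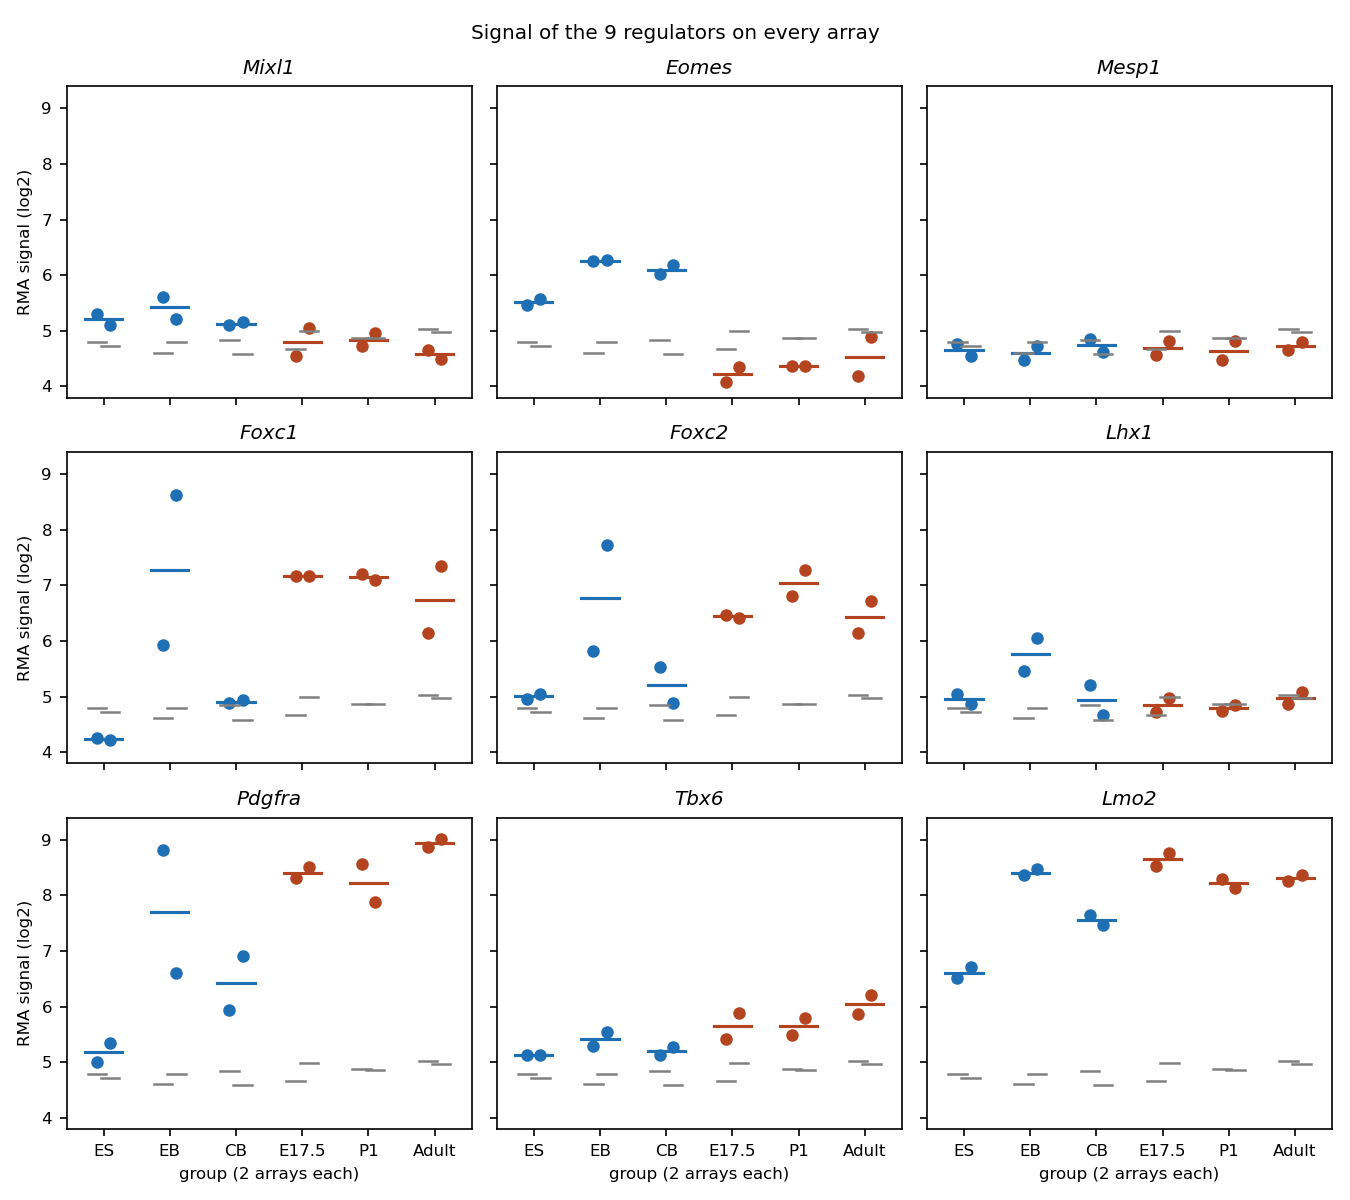
RMA signal (log2) of each of the 9 genes on all 12 arrays; points are arrays, coloured bars are group means (blue for cultures, red for hearts), and grey bars are each array's background level. Mesp1 stays between 4.47 and 4.86 on all arrays, while the Foxc1, Foxc2 and Pdgfra points of embryonic bodies lie far apart.

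Among the genes of streak entry, Eomes was the one with a clear culture pattern. Its signal was 5.46 and 5.57 in ES cells, 6.25 and 6.27 in embryonic bodies, and 6.02 and 6.18 in cardiac bodies. In hearts it was 4.08 and 4.35 at E17.5, 4.36 and 4.36 at P1, and 4.18 and 4.88 in adults. Every culture array was above every heart array, and the 2 embryonic body arrays were above the other 10.

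Mixl1, a homeobox factor of the streak, gave 5.31 and 5.11 in ES cells, 5.61 and 5.22 in embryonic bodies and 5.11 and 5.15 in cardiac bodies. Heart signals were 4.54 and 5.05 at E17.5, 4.72 and 4.96 at P1 and 4.65 and 4.50 in adults. The ES arrays overlapped both other culture groups, the cardiac body arrays lay just below the embryonic body arrays, and all 6 culture arrays lay above the heart arrays, the nearest pair being 5.11 and 5.05. Mesp1 moved least of the 9: its group means spanned 0.14, a smaller range than that of all but 0.5% of genes. Its signals ran from 4.47 to 4.86 over the 12 arrays. In cardiac bodies, the 1 group where it was above background, it gave 4.86 and 4.62, against background levels of 4.84 and 4.58.

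Lhx1, a LIM homeobox factor, was highest in embryonic bodies, at 5.46 and 6.05. The other groups were at 5.05 and 4.86 (ES cells), 5.20 and 4.67 (cardiac bodies), 4.73 and 4.97 (E17.5), 4.74 and 4.84 (P1) and 4.87 and 5.08 (adult), and these 5 groups overlapped their neighbours in the order of means. Tbx6, a T-box factor, gave 5.13 and 5.13 in ES cells, 5.30 and 5.55 in embryonic bodies and 5.14 and 5.28 in cardiac bodies. In hearts it gave 5.42 and 5.89 at E17.5, 5.50 and 5.80 at P1 and 5.86 and 6.21 in adults. In the order of its means the 3 heart groups and the embryonic bodies each overlapped the next, and the group means spanned 0.91.

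The forkhead pair Foxc1 and Foxc2 shared a pattern. Foxc1 gave 4.26 and 4.22 in ES cells, 5.93 and 8.63 in embryonic bodies, 4.89 and 4.93 in cardiac bodies, 7.16 and 7.17 at E17.5, 7.20 and 7.10 at P1, and 6.14 and 7.34 in adult hearts. Foxc2 gave 4.96 and 5.05 in ES cells, 5.81 and 7.73 in embryonic bodies, 5.53 and 4.89 in cardiac bodies, 6.46 and 6.42 at E17.5, 6.80 and 7.28 at P1, and 6.15 and 6.71 in adult hearts. At the gene level both were low in ES cells and cardiac bodies, and heart arrays lay above all ES and cardiac body arrays. For both genes the embryonic body arrays overlapped the heart groups. Over the 12 arrays the Pearson correlation of the 2 genes was 0.95; the arrays share 6 groups, and it is given as a description.

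Pdgfra was lowest in ES cells, at 5.01 and 5.35. It reached 8.81 and 6.61 in embryonic bodies and 5.94 and 6.92 in cardiac bodies, and in hearts 8.32 and 8.51 at E17.5, 8.57 and 7.88 at P1 and 8.87 and 9.01 in adults. Its group means spanned 3.76, a wider range than that of 95.7% of genes. The embryonic body arrays overlapped those of cardiac bodies and of E17.5 and P1 hearts. Lmo2, a LIM-only protein that bridges transcription factors in blood and endothelial precursors, gave 6.51 and 6.71 in ES cells, 8.36 and 8.47 in embryonic bodies and 7.65 and 7.47 in cardiac bodies. Its heart signals were 8.53 and 8.77 at E17.5, 8.30 and 8.14 at P1 and 8.26 and 8.36 in adults. ES arrays were the lowest and cardiac body arrays the next lowest for Lmo2.

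The question of the first comparison is which of these genes differ between embryonic bodies and undifferentiated ES cells. Embryonic bodies had more signal of 6 of the 9 genes: Foxc1, Pdgfra, Lmo2, Foxc2, Lhx1 and Eomes rose, and none fell. In these bulk samples more cells of a type and more RNA per cell cannot be told apart. Of all 19920 genes 20.6% were called, 12% as higher, by limma at a Benjamini-Hochberg adjusted p under 0.05. Median changes were 0.8 over the 9 genes and -0.03 over all genes. Marker lists of several cell types moved in the same comparison. Endothelial markers (6 rises and 2 falls of 10, median 1.54) averaged 6.67 and 7.44 in embryonic bodies, against 5.89 and 5.85 in ES cells. Fibroblast and mesenchyme markers (5 rises of 10, median 1.18) averaged 6.90 and 5.67 in embryonic bodies, against 5.15 and 5.02 in ES cells. Red cell markers (4 rises of 7, median 2.25) averaged 8.78 and 5.41 in embryonic bodies, against 4.70 and 4.67 in ES cells. Visceral endoderm markers had 6 rises of 10 (median 0.85), and all 10 pluripotent markers fell (median -3.29). The part of these lists in the 6 rises was not tested.

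Foxc1 averaged 7.28 in embryonic bodies and 4.24 in ES cells, a log2 change of 3.04 ± 0.62 (SE, n = 2 arrays each; limma adjusted p = 0.00362). Foxc1 was at background in ES cells, so a fold was taken over the ES background level, and the embryonic body mean was 5.74-fold above it. That fold depends on the background rule and on 2 embryonic body arrays at 5.93 and 8.63. Pdgfra changed by 2.53 ± 0.53 (adjusted p = 0.00468, limma), a 5.78-fold difference, and Lmo2 by 1.81 ± 0.17 (adjusted p = 1.23e-05), a 3.5-fold difference. Foxc2 was 3.39-fold higher at 1.76 ± 0.46 (adjusted p = 0.0163). Lhx1 (0.80 ± 0.23) and Eomes (0.75 ± 0.22) had smaller rises, each at an adjusted p of 0.0275 in limma. Tbx6 was at 5.42 in embryonic bodies and 5.13 in ES cells (adjusted p = 0.404), Mixl1 at 5.42 and 5.21 (adjusted p = 0.602) and Mesp1 at 4.60 and 4.66 (adjusted p = 0.902). The Foxc1 value was 1.69 without embryonic body array 2 and the Pdgfra value 1.43 without array 1, and both stayed called. The Foxc2 value was 2.72 without array 1 and 0.80 without array 2, and that of Lhx1 was 0.50 without array 2. Foxc2 and Lhx1 lost the call without embryonic body array 2 or either ES array (Foxc2 adjusted p up to 0.113, Lhx1 up to 0.23). Eomes lost it without any of the 4 arrays of the comparison (up to 0.15), and under quantile normalization (adjusted p = 0.0608). With the median of a gene's exon-level probe sets the changes were 1.72 for Foxc1 and 1.07 for Foxc2, and both were called.

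**Figure D2:**
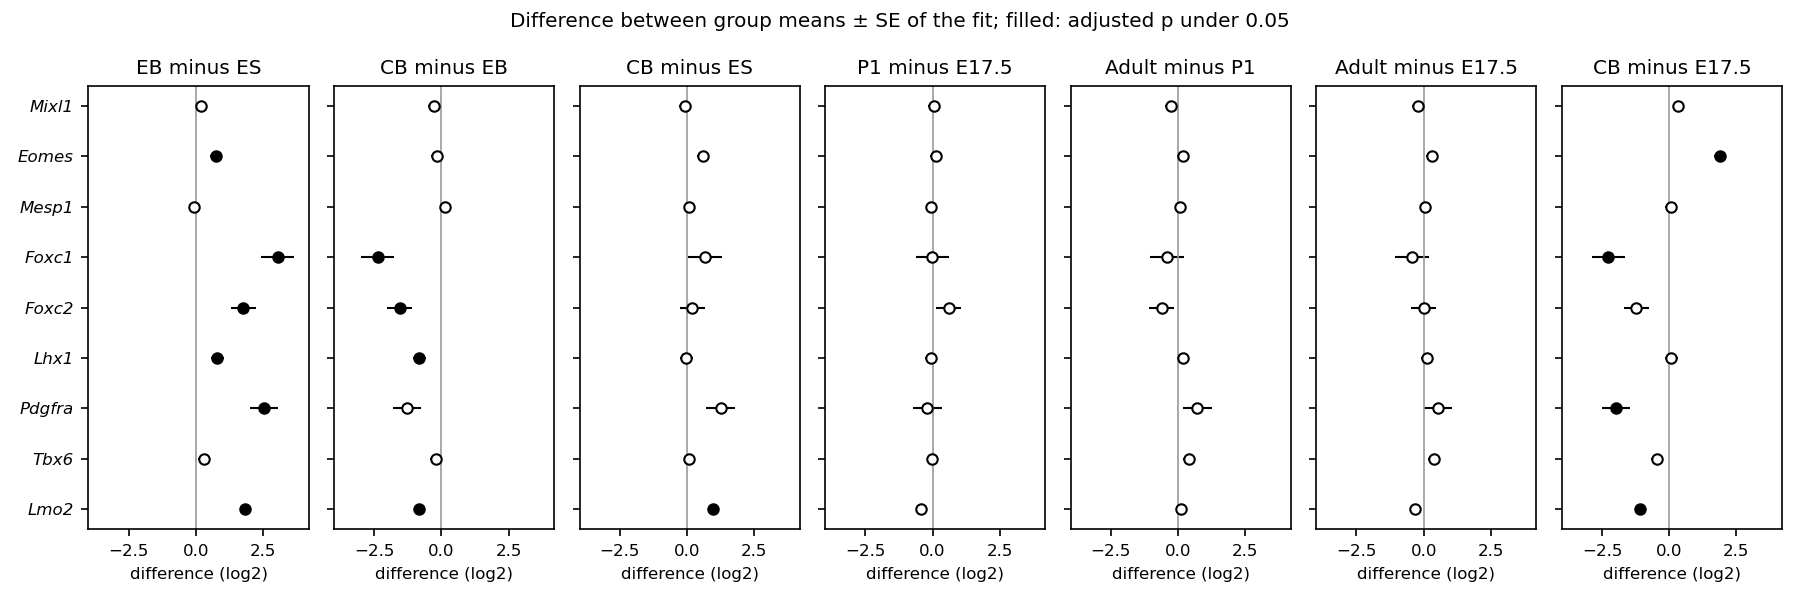
Difference between group means (log2, horizontal axis) for each gene in the 7 comparisons, with bars for the SE of the limma fit and filled points for an adjusted p under 0.05. In the first panel 6 points are filled, all right of 0; in the second 4 are filled, all left of 0; the 3 heart panels hold no filled point.

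The spread within embryonic bodies bears on all of these values. Foxc1 differed between the 2 arrays by -2.70 and Foxc2 by -1.92 (array 1 minus array 2), and Pdgfra by 2.20; 99.9%, 99.6% and 99.8% of genes had a smaller gap. For each of the other 6 genes the 2 arrays were within 0.6 of each other. So Foxc1 and Foxc2 were high on array 2 and Pdgfra on array 1. Marker lists moved with the arrays as well. The red cell list had a mean of 8.78 on array 1 and 5.41 on array 2, and its 7 measured genes included 6 above background in both. The fibroblast and mesenchyme list (10 genes, 7 above background) had means of 6.90 and 5.67, the visceral endoderm list (10 genes, 9 above) 6.83 and 5.84, and the trophoblast list (6 genes, 3 above) 6.80 and 5.99. The endothelial list (10 genes, all above) was the other way round, at 6.67 and 7.44, as was the cardiomyocyte list (10 genes, 9 above) at 5.69 and 6.23. The pluripotent list stood at 7.69 and 7.85 and the T and natural killer cell list at 4.23 and 4.32. Their part in the Foxc1, Foxc2 and Pdgfra values was not tested.

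**Figure D3:**
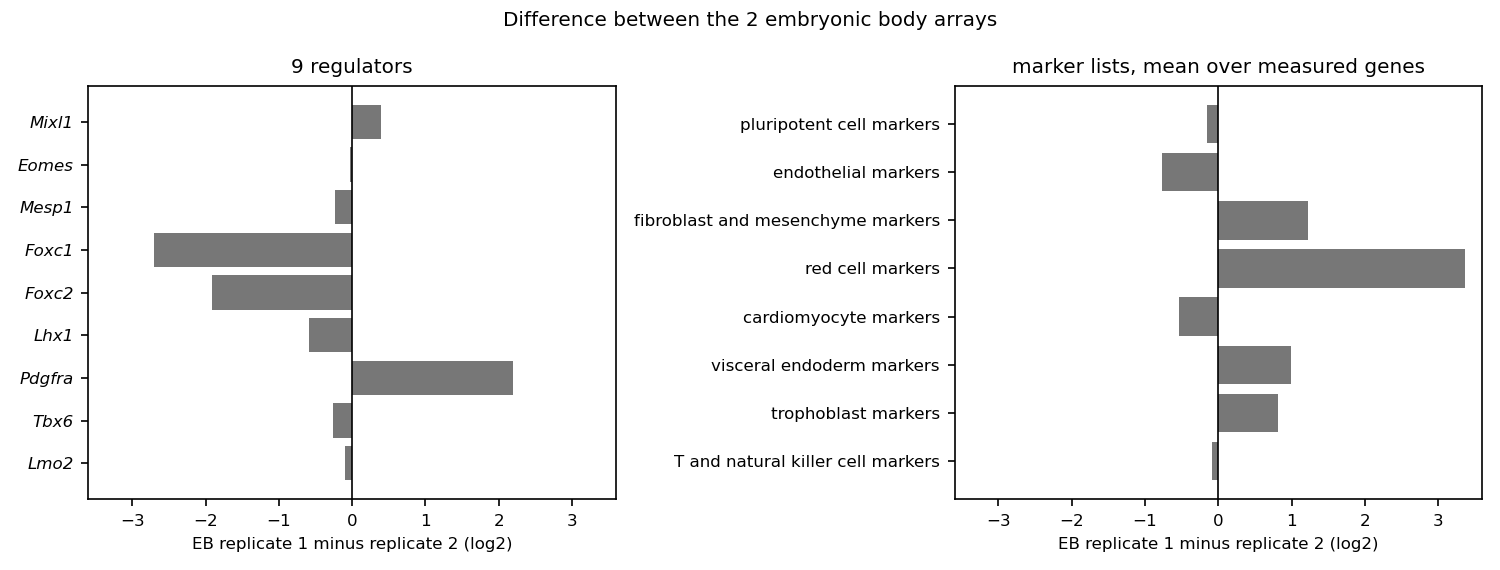
Difference between the 2 embryonic body arrays (replicate 1 minus replicate 2, log2): single genes on the left, and the mean of each marker list over its measured genes on the right. Foxc1 and Foxc2 lie left of 0, as do the endothelial (-0.77) and cardiomyocyte (-0.54) lists. Pdgfra lies right of 0, as do the red cell (3.37), fibroblast (1.23), visceral endoderm (0.99) and trophoblast (0.81) lists. The pluripotent and the T and natural killer cell lists lie near 0.

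Genes around the 9 in the same pathways gave the following counts, against 20.6% of all genes called and 12% called higher. Among 18 measured genes of the streak and nascent mesoderm list, 3 rose and 2 fell in embryonic bodies relative to ES cells, and 13 did not pass the test (median 0.34). Otx2 (2.04 ± 0.39, adjusted p = 0.00261, limma) and Aplnr, the apelin receptor (1.94 ± 0.35), were higher, and the signalling factors Fgf4 (-2.69 ± 0.24) and Nodal (-2.07 ± 0.34) were lower. Fgf4 is also in the pluripotent list, all 10 genes of which fell. The lateral plate and cardiac list had 8 rises and no fall among 14 genes (median 1.87), led by Kdr (3.70 ± 0.26), a VEGF receptor of vascular precursors, Isl1 (3.24 ± 0.27) and Tbx20 (2.97 ± 0.58), both cardiac progenitor factors, and Gata6 (2.85 ± 0.29). Among 14 Lmo2 partners and early blood regulators, 4 rose and none fell (median 0.38): Tcf12 (2.49 ± 0.23), Fli1 (2.23 ± 0.21), Erg (1.40 ± 0.35) and Runx1 (1.22 ± 0.24). The 14 presomitic and paraxial genes (median -0.16) had 1 rise, Rspo3 at 1.61 ± 0.35, and 1 fall, Tcf15 at -3.41 ± 0.20. The 7 intermediate mesoderm genes (median 0.07) had 1 rise, Gata3 at 1.93 ± 0.20, and 1 fall, Pax8 at -0.84 ± 0.22. Of 5 PDGF ligands and receptors (median 0.04), Pdgfrb, the second receptor of the family, rose by 2.29 ± 0.23, while the ligands Pdgfc (-0.94 ± 0.26) and Pdgfa (-0.69 ± 0.22) fell.

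Cardiac bodies were next compared with embryonic bodies. Foxc1, Foxc2, Lhx1 and Lmo2 were lower in cardiac bodies and none of the 9 was higher. The comparison shares the embryonic body arrays, with opposite sign, with that of embryonic bodies and ES cells, so opposite signs in the 2 are not independent. Of all genes 11.9% were called and 6.43% were lower. Median changes were -0.82 over the 9 genes and -0.01 over all genes. Lmo2 was at 7.56 in cardiac bodies and 8.41 in embryonic bodies (-0.85 ± 0.17, adjusted p = 0.00579, limma). Foxc1 was at 4.91 in cardiac bodies and 7.28 in embryonic bodies (-2.37 ± 0.62, adjusted p = 0.0256). The change was -1.56 ± 0.46 for Foxc2 (adjusted p = 0.047, limma) and -0.82 ± 0.23 for Lhx1 (adjusted p = 0.0371). Eomes was not called, at 6.10 in cardiac bodies and 6.26 in embryonic bodies (adjusted p = 0.759). Pdgfra averaged 6.43 in cardiac bodies and 7.71 in embryonic bodies, a difference of -1.28 ± 0.53 that was not called (adjusted p = 0.169). All 26 of its exon-level probe sets were lower in cardiac bodies, but they share the arrays and are not independent of that difference.

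These calls rested on few arrays. Without embryonic body array 2 the changes were -1.02 for Foxc1, -0.60 for Foxc2 and -0.53 for Lhx1, none of them called (adjusted p = 0.118, 0.337 and 0.28, limma), and the Pdgfra change became -2.37 and was called (adjusted p = 0.0015). Without embryonic body array 1 Foxc1 was at -3.72 and Foxc2 at -2.52. Foxc1 also lost the call with either cardiac body array left out. With the median of exon-level probe sets neither Foxc1 (-1.33, adjusted p = 0.124) nor Foxc2 (-0.86, adjusted p = 0.148) was called. Foxc2 lost the call without 9 of the 12 arrays in turn and Lhx1 without 6. Lmo2 lost it without cardiac body array 2 (-0.76, adjusted p = 0.0585). In these groups the endothelial list averaged 5.81 and 5.95 in cardiac bodies (9 of 10 genes above background), against 6.67 and 7.44 in embryonic bodies, and the fibroblast list 5.28 and 5.29 (6 of 10), against 6.90 and 5.67. Red cell markers averaged 4.68 and 4.58 in cardiac bodies (3 of 7 genes above background), against 8.78 and 5.41 in embryonic bodies. Cardiomyocyte markers were at 11.44 and 11.08 in cardiac bodies, against 5.69 and 6.23 in embryonic bodies. The pluripotent list, with 9 rises among 10 genes and a median change of 2.45, averaged 9.91 and 10.15 in cardiac bodies, against 7.69 and 7.85 in embryonic bodies. The part of these lists in the 4 falls was not tested.

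Companion genes of the same comparison are given next, against 11.9% of all genes called and 6.43% called lower. Of the Lmo2 partners 5 of 14 fell and none rose, among them Fli1 (-2.32 ± 0.21), Tcf12 (-1.82 ± 0.23), Erg (-1.65 ± 0.35) and Runx1 (-0.97 ± 0.24). The streak list had 3 rises, Nodal (2.24 ± 0.34), Fgf4 (2.08 ± 0.24) and Lefty2 (1.62 ± 0.39), and 2 falls, with Aplnr at -2.30 ± 0.35. In the lateral plate list Kdr (-3.09 ± 0.26), Isl1 (-2.08 ± 0.27) and Prrx1 (-1.97 ± 0.42) were lower, and Tbx5 (2.48 ± 0.36) was higher; 3 genes rose and 4 fell. Pdgfrb fell by 2.57 ± 0.23 and was the 1 PDGF family gene called. Tcf15 rose (2.09 ± 0.20) in the presomitic list, which had no fall, and Gata3 fell (-1.77 ± 0.20) in the intermediate list.

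Cardiac bodies differed from ES cells in 1 of the 9 genes, against 9.80% of all genes called and 6.19% called higher. Lmo2 was at 7.56 in cardiac bodies and 6.61 in ES cells, a change of 0.95 ± 0.17 (adjusted p = 0.00323, limma) that held without each array in turn. Pdgfra averaged 6.43 in cardiac bodies and 5.18 in ES cells (1.25 ± 0.53), which was not called (adjusted p = 0.197) although both cardiac body arrays lay above both ES arrays; with either embryonic body array left out the SE was 0.30 and it was called (adjusted p = 0.02). Eomes was at 6.10 in cardiac bodies and 5.51 in ES cells (0.58 ± 0.22, adjusted p = 0.129). Foxc1 was at 4.91 in cardiac bodies and 4.24 in ES cells (0.67 ± 0.62, adjusted p = 0.654). The comparisons of embryonic and of cardiac bodies with ES cells share the ES arrays. Lateral plate genes had 8 rises and 1 fall, led by Tbx20 (4.79 ± 0.58), Gata6 (3.64 ± 0.29), Gata4 (2.10 ± 0.32) and Tbx5 (2.06 ± 0.36), Otx2 rose (1.82 ± 0.39) as the 1 streak list call, Rspo3 rose (1.49 ± 0.35) and Tcf15 fell (-1.32 ± 0.20) in the presomitic list, and the intermediate, Lmo2 partner and PDGF lists had no call.

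Hearts were compared across E17.5, P1 and adult, and none of the 9 genes was called in any of the 3 comparisons. Of all genes 5.13% were called for P1 minus E17.5, 30.2% for adult minus P1 and 36.1% for adult minus E17.5. At an unadjusted p under 0.05 the counts were 1, 0 and 0 of the 9 in limma, against 18.3%, 39.9% and 44.3% of all genes. The 1 gene was Lmo2, at 8.22 in P1 hearts and 8.65 in E17.5 hearts (-0.44 ± 0.17, adjusted p = 0.184). With the median of a gene's exon-level probe sets in place of the gene-level value, Foxc2 was called for adult minus P1 (-0.98, adjusted p = 0.045) and Lmo2 for adult minus E17.5 (-0.72, adjusted p = 0.0372). Without adult array 1, Eomes was called for adult minus E17.5 (0.66, adjusted p = 0.031), from a gene at background in both groups. Pdgfra averaged 8.94 in adult hearts and 8.22 in P1 hearts (0.72 ± 0.53, adjusted p = 0.352), and Tbx6 6.04 in adult hearts and 5.65 in P1 hearts (0.39 ± 0.21, adjusted p = 0.191).

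Some companion genes were called in hearts. The shares of all genes called were 5.13% (P1 minus E17.5), 30.2% (adult minus P1) and 36.1% (adult minus E17.5). For adult minus P1 none of 18 streak genes and none of 7 intermediate genes was called. Of 14 lateral plate genes 2 rose and 2 fell, of 14 Lmo2 partners 1 rose and 2 fell, and of 5 PDGF genes 1 rose. Between P1 and E17.5, Cbfa2t3 (1.14 ± 0.19), a corepressor that works with LMO2 complexes, and Pdgfrb (0.92 ± 0.23) rose, and the streak, presomitic, intermediate and lateral plate lists had no call. Adult hearts had Meox2 higher (1.88 ± 0.20) and Aldh1a2, which makes retinoic acid (-1.83 ± 0.20), Tbx18 (-1.25 ± 0.31) and Tcf15 (-1.09 ± 0.20) lower than P1 hearts, with 1 rise and 4 falls in the presomitic list. Other calls against P1 were Bmp4 (1.94 ± 0.39), Prrx1 (1.43 ± 0.42), Kdr (-1.21 ± 0.26), Smarcd3 (-0.81 ± 0.25), Runx1 (1.42 ± 0.24), Tcf3 (-0.80 ± 0.20), Ldb1 (-0.53 ± 0.17) and Pdgfd (1.92 ± 0.25). Against E17.5, adult hearts had Runx1 (1.79 ± 0.24), Cbfa2t3 (1.34 ± 0.19), Gata2 (1.21 ± 0.21), Osr1 (1.44 ± 0.46), Pdgfd (1.05 ± 0.25) and Pdgfrb (1.04 ± 0.23) higher. Also higher were Meox2 (1.98 ± 0.20), Tbx5 (1.72 ± 0.36), Bmp4 (1.71 ± 0.39) and Prrx1 (1.63 ± 0.42). Lower were Tbx18 (-2.19 ± 0.31), Aldh1a2 (-2.16 ± 0.20), Kdr (-1.09 ± 0.26), Hes7 (-0.93 ± 0.23) and Tcf3 (-0.59 ± 0.20), and the streak list had no call. T and natural killer cell markers, of which 5 of 8 were above background in adult hearts, averaged 5.03 and 5.18 there, against 4.52 and 4.59 in P1 hearts; Eomes is also known as a factor of these cells, and the part of the list in the Eomes signal was not tested.

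The last comparison sets cardiac bodies against E17.5 hearts, the earliest hearts measured. Of the 9 genes, 1 rose (Eomes) and 3 fell (Foxc1, Pdgfra and Lmo2) in cardiac bodies; 23.7% of all genes were called, 12.1% higher and 11.6% lower. Median changes were -0.45 over the 9 genes and -0.02 over all genes. Eomes was at 6.10 in cardiac bodies and 4.22, at background, in E17.5 hearts (1.88 ± 0.22, adjusted p = 6.06e-05, limma). Its cardiac body mean was 2.41-fold above the E17.5 background level, a fold that depends on the background rule. Lmo2 was at 7.56 in cardiac bodies and 8.65 in E17.5 hearts (-1.09 ± 0.17, adjusted p = 0.000582). Foxc1 changed by -2.26 ± 0.62 (adjusted p = 0.018) and Pdgfra by -1.98 ± 0.53 (adjusted p = 0.0168). With either embryonic body array left out, these changes were the same and the SE was 0.29 for Foxc1 and 0.30 for Pdgfra. Foxc2 was at 5.21 in cardiac bodies and 6.44 in E17.5 hearts (-1.23 ± 0.46, adjusted p = 0.0766), and it was called with either embryonic body array left out (adjusted p = 0.00394). Eomes and Lmo2 stayed called without each array in turn. Foxc1 was not called without any 1 of the 4 arrays compared (adjusted p up to 0.0931) or with the median of exon-level probe sets (-1.37, adjusted p = 0.0665), and Pdgfra not without cardiac body array 1 or either E17.5 array (up to 0.145). Endothelial markers averaged 5.81 and 5.95 in cardiac bodies, against 8.88 and 8.79 in E17.5 hearts, and fibroblast markers 5.28 and 5.29, against 9.58 and 9.82, with 10 of 10 of both lists above background in E17.5 hearts. Pluripotent markers averaged 9.91 and 10.15 in cardiac bodies, with 10 of 10 above background, against 5.04 and 5.08 in E17.5 hearts with 5 of 10. Their part in the 4 calls was not tested.

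In that comparison 23.7% of all genes were called, 12.1% higher and 11.6% lower. The Lmo2 partners had 5 falls and no rise of 14, with Fli1 at -3.26 ± 0.21 and Erg at -2.17 ± 0.35. The streak list had 4 rises and 1 fall, among them Nodal (4.06 ± 0.34), Otx2 (3.44 ± 0.39) and Fgf4 (2.71 ± 0.24) higher and Aplnr (-3.18 ± 0.35) lower. PDGF genes had 1 rise, Pdgfc (0.91 ± 0.26), and 3 falls, Pdgfrb (-2.71 ± 0.23), Pdgfd (-2.44 ± 0.25) and Pdgfb (-1.52 ± 0.32). The presomitic list had 2 rises and 5 falls, led by Tbx18 (-3.69 ± 0.31), Meox2 (-2.81 ± 0.20) and Aldh1a2 (-2.80 ± 0.20). The lateral plate list had 1 rise, Isl1 (1.1 ± 0.27), and 5 falls, led by Kdr (-3.90 ± 0.26), and Wt1 fell (-0.91 ± 0.21) in the intermediate list.

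Exon-level probe sets, which measure parts of a transcript, come from the same RNA samples and arrays as the gene-level values. Their counts for the called genes describe how even a change was along the gene. They are not an independent replication of the calls. For embryonic bodies minus ES cells 25 of 26 Pdgfra probe sets were higher, 6 of them called, with a median change of 2.67, against 6% of all probe sets called. All 5 Lmo2 probe sets were higher (3 called), as were 3 of 4 for Foxc1 (1 called), 1 of 2 for Foxc2 (1 called), 7 of 9 for Lhx1 (3 called) and 8 of 9 for Eomes (none called; median 0.85). The 2 Foxc2 probe sets differed: 10576053 gave 5.49 and 7.73 in embryonic bodies, against 4.04 and 4.18 in ES cells. Probe set 10576052 was high in both, at 8.88 and 9.06 in embryonic bodies and 9.44 and 9.22 in ES cells. In cardiac bodies it gave 9.50 and 9.07. Lmo2 was uneven along the gene: probe set 10474206 gave 9.21 and 9.65 in embryonic bodies, against 6.03 and 5.53 in ES cells, while probe set 10474202 gave 7.20 and 7.21 in embryonic bodies, against 7.11 and 7.12 in ES cells. In cardiac bodies relative to E17.5 hearts 8 of 9 Eomes probe sets were higher (4 called), 25 of 26 of Pdgfra were lower (3 called) and 5 of 5 of Lmo2 were lower (2 called), against 8.62% of all probe sets.

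**Figure D4:**
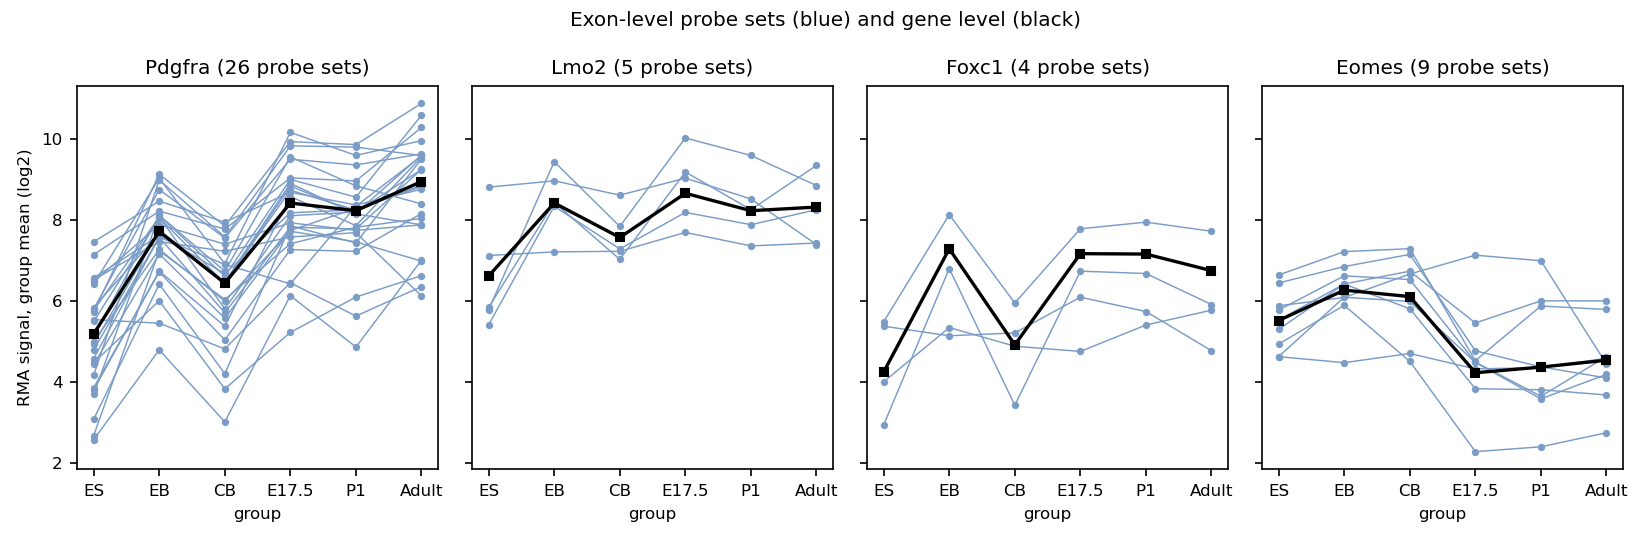
Group means (log2 RMA signal) of the exon-level probe sets, as blue lines, and of the gene-level value, as a black line, for Pdgfra, Lmo2, Foxc1 and Eomes over the 6 groups. Most Pdgfra lines follow the gene-level line, while 2 of 5 Lmo2 lines are nearly flat between ES cells and embryonic bodies.

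The splicing index, a probe set's signal minus that of its gene, was tested for genes at or above the median level in both groups. A probe set also had to reach the median probe set level in at least 1 of the groups, so not all probe sets of a gene were tested. No probe set of the 9 genes was called in the 3 culture comparisons, in P1 against E17.5 hearts or in cardiac bodies against E17.5 hearts, where the shares called of all probe sets were 0.0294%, 0.00316%, 0.108%, 0.00% and 0.245%. At an unadjusted p under 0.05 in limma the numbers were 4 of 5 tested for embryonic bodies minus ES cells, 5 of 31 for cardiac minus embryonic bodies, 4 of 5 for cardiac bodies minus ES cells, 1 of 30 for P1 minus E17.5 hearts and 10 of 28 for cardiac bodies minus E17.5 hearts. Over all probe sets tested the shares at that threshold were 4.40%, 3.70%, 3.67%, 6.76% and 10.2% in the same 5 comparisons. All tested probe sets of the comparisons with ES cells were those of Lmo2. For adult minus P1 hearts 2 of 31 probe sets (6.45%) were called, against 13.6% of all, and for adult minus E17.5 hearts 4 of 31 (12.9%), against 16.5%. In both comparisons 24 of the 31 belonged to Pdgfra, 5 to Lmo2 and 2 to Foxc1. Probe sets of 1 gene are not independent, so these shares are only a description. Lmo2 probe set 10474203 averaged 7.39 in adult hearts and 9.02 in E17.5 hearts, an index change of -1.30 ± 0.25 (adjusted p = 0.0104, limma); against P1 hearts, at 8.51, the change was -1.22 ± 0.25 (adjusted p = 0.0154). Its 2 adult arrays, at 7.40 and 7.37, lay below the E17.5 arrays, at 9.05 and 9.0, and the P1 arrays, at 8.41 and 8.61. Pdgfra probe set 10522519 averaged 9.57 in adult hearts and 6.41 in E17.5 hearts (2.63 ± 0.56, adjusted p = 0.0141), with 9.73 and 9.41 on the adult arrays and 7.25 and 5.58 on the E17.5 arrays. Pdgfra probe sets 10522510 (-1.98 ± 0.54) and 10522524 (-1.69 ± 0.40) went the other way (adjusted p = 0.0356 and 0.021).

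For each gene whose group means spanned at least 1, the 3 most similar genes were sought among 9889 genes, by Pearson r over the 12 arrays, as a description. Eomes was most like Fzd7 (0.989), Gpr19 (0.969) and Fam83h (0.968). Foxc1 was most like Gpm6a (0.961), Foxc2 (0.954) and Vav3 (0.946), and Foxc2 like Foxc1, Efna5 (0.905) and Snn (0.896). Pdgfra was nearest to Smarca2 (0.970), Foxn3 (0.961) and Lipa (0.957), and Lmo2 to Serf1 (0.977), Casp6 (0.974) and Anxa5 (0.972). Among the 9 themselves, Lmo2 correlated with Foxc1 at 0.86, with Pdgfra at 0.85 and with Foxc2 at 0.76. Eomes had a negative r with Foxc1, Foxc2, Pdgfra and Lmo2 over the 12 arrays, between -0.36 and -0.55. In embryonic bodies relative to ES cells it nevertheless rose as they did. All these arrays share the same 6 groups.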

How the data were processed

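Affymetrix mouse gene arrays of 12 RNA samples were used. Per the labels' protocols, RNA was extracted with TRIzol, reduced for ribosomal RNA, amplified and hybridized as cDNA. The deposited log2 values are the authors' RMA output from Affymetrix Power Tools, per the submitters' processing notes. Neither tool versions nor a genome build was given in the sources used here. Each sample was deposited as gene-level values (35556 transcript clusters) and exon-level values (241576 probe sets), 24 sets of values in all, used as deposited without further normalization.

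Clusters with 1 platform symbol (21789) gave 19920 genes; those with several (1621) or none (12146) were left out, and for 1015 genes with several clusters the one with the highest mean was used. Symbols were updated through RefSeq. limma 3.58.1 (R 4.3.3, data.table at version 1.17.8) fitted 6 group means to all 12 arrays (6 residual degrees of freedom, prior 6.18). In each of 7 comparisons a call needed p under 0.05 after Benjamini-Hochberg adjustment over all genes. All p-values are from this fit. Exon-level values of 203574 probe sets were fitted likewise, leaving out 1847 identical to their gene's values, which was decided after seeing the data. The splicing index used 15084 genes with at least 4 probe sets and needed a change of at least 1. A fit tested on simulated embryonic body minus ES data of 19920 genes found 2%, 46%, 94% and 98% of log2 changes of 0.5, 1, 2 and 4 (50 genes each), with 7 false calls of 127. The simulation used independent normal noise and changed a far smaller share of genes than the 20.6% called in the data. Its rates need not hold for these data. The number of arrays limits precision.

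The 9 genes, 6 companion lists and 8 marker lists (143 of 150 list entries measured; T, the brachyury gene, was not analysed here) and the promoter motifs were chosen with earlier results of these data known. The text names all 9 genes, up to 4 called genes with the largest change per companion list and comparison, and the 3 most similar genes. Figures used matplotlib 3.10.9, and tables pandas 2.3.3 and numpy 2.4.6, under Python 3.11.15.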

Additional observations from a re-analysis of the deposited data

How the results depend on the processing

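The 9 genes gave 63 changes, of which 15 were called. Over 268 values of called changes under 18 alternatives each where they could be run, 40 lost the call and 0 changed sign; of 838 values of uncalled changes 8 were called and 45 changed sign without a call. The cause was not tested. When single arrays were left out in turn, the count of the 9 genes called ran from 3 to 6 for embryonic bodies minus ES cells, 0 to 4 for cardiac minus embryonic bodies, 1 to 2 for cardiac bodies minus ES cells, 0 to 1 for adult minus E17.5 hearts and 2 to 5 for cardiac bodies minus E17.5 hearts, with 0 for P1 minus E17.5 and for adult minus P1. Over all genes the same ranges were 2384 to 4958, 1217 to 3226, 883 to 2539, 5010 to 8004 and 2462 to 5669, with 303 to 3056 for P1 minus E17.5 and 4529 to 6116 for adult minus P1. A group left with 1 array is assumed to vary like the others. With the median of exon-level probe sets, 2 of the 9 genes and 1574 of all genes were called for cardiac minus embryonic bodies. For P1 minus E17.5 it was 0 of the 9 and 568 of all genes. It was 1 of the 9 for adult minus P1 (4734 of all genes) and 1 for adult minus E17.5 (5863 of all genes). The number of the 9 genes at background depended on the rule. At the 90th percentile it was 1 in ES cells, 0 in embryonic bodies, 1 in E17.5 hearts, 1 in P1 hearts and 0 in adult hearts. At the 99th it was 7 in ES cells, 6 in cardiac bodies, 4 in E17.5 hearts and 5 in P1 hearts. Against the array median it was 8 in ES cells, 3 in embryonic bodies, 6 in cardiac bodies and 4 in E17.5 hearts. An array median has as many clusters above it as below. The shares of all genes under these other rules were not computed, so the counts show only how the rule moves the number. Without a filter on level, the splicing index was tested for 70 probe sets of the 9 genes and 197711 probe sets in all. Calls were 4 of the 70 for embryonic bodies minus ES cells (706 over all probe sets). They were 1 for cardiac bodies minus ES cells (662 over all) and 1 for cardiac bodies minus E17.5 hearts (865 over all). For adult hearts the calls were 4 against P1 (20063 over all) and 5 against E17.5 (25345 over all).

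Replicate numbers are shared by the groups, and the 15 correlations of replicate deviations between groups ran from -0.176 to 0.29. These values cannot exclude a pairing or a shared batch between some groups. The main fit held no term for replicate number. With the replicate block the calls among the 9 genes stayed at 6, 4, 1, 0, 0, 0 and 4 in the 7 comparisons, and those over all genes were 3963, 2206, 1837, 885, 5812, 7000 and 4520. The splicing index calls of their probe sets stayed at 2 for adult minus P1 and 4 for adult minus E17.5 hearts. Genes near the background level, such as Mesp1, Mixl1 and Lhx1, have little room to fall, and 2 arrays a group limit what can be called.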
